A study of Mus musculus with 20 samples.

Results

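The genes described here encode 10 inflammatory and regulatory cytokines, namely Il1a, Il1b, Il1rn, Il6, Tnf, Il10, Il12b, Il18, Il27 and Ifnb1. They were chosen by symbol, with earlier results of these data known, from the 33243 rows of a bulk RNA-seq count table, and all 10 were found. All 10 reached the total of 10 counts over the 20 libraries that was required for testing, together with 16632 genes in all, although Ifnb1 did so with 1 library. The libraries came from dural macrophages of the border of the central nervous system (dural CNS-associated macrophages, dCAMs) of Ccr2creERT2/+ R26tdT/tdT mice, in which tamoxifen turns on the red fluorescent protein tdTomato (tdT) in cells that use the Ccr2 promoter at that time. All mice received the CSF-1R inhibitor BLZ945 at 200 mg/kg for 7 days to deplete macrophages, and tamoxifen at 2 mg per day on the last of these days and 2 and 4 days later. At 8 weeks after the last gavage, 5 mice were injected with lipopolysaccharide (LPS) of bacteria at 2.5 mg/kg and 5 control mice (CTL) with PBS, and the dura was taken 12 h later. From each mouse, cells gated as CD45int CD11b+ CD206int-high were split by tdT into 1 tdT+ and 1 tdT- library, giving 4 groups of 5 libraries. The tdT label marks descendants of cells with Ccr2 promoter activity around repopulation, and tdT- cells can be of any other origin or can have escaped recombination. Every group had been depleted and repopulated, so no comparison here includes macrophages that were never depleted. The age at the time of LPS is not given for single mice in the sources used here.

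The 10 cytokines take different roles in an inflammatory response. Il1a and Il1b encode the agonists IL-1α and IL-1β of the IL-1 receptor, and Il1rn encodes the antagonist that occupies this receptor without signaling. Tnf, Il6 and Il18 encode further inflammatory cytokines, of which IL-18 is, like IL-1β, made as a precursor that caspase-1 cleaves. Il12b encodes a subunit shared by IL-12 and IL-23, Il27 a subunit of IL-27, Ifnb1 the type I interferon IFN-β, and Il10 an anti-inflammatory cytokine that limits macrophage activation. Macrophages sense LPS through TLR4, and transcripts of many of these genes are known to be made early and removed quickly.

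Errors of log2 values are SEs from the joint fit of 5 libraries per group. Levels are given as CPM, the counts of a gene scaled to a library of 1000000 counts with TMM factors, and 3 counts were treated as the floor of a library, which lay at or under 0.487 CPM. CTL libraries held 6017650 to 12208203 counts and LPS libraries 12073566 to 18925908, so depth and treatment went together. The tdT- CTL libraries were the least complete. Of 7295 well expressed genes (mean log2 CPM 4 or more), 5.84% to 22.8% were at or under the floor in a tdT- CTL library, against at most 2.78% in a tdT+ CTL library and 0.631% in an LPS library. Zeros in tdT- CTL libraries are therefore given library by library.

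The sorted cells carried macrophage markers in every library, with each of 8 border macrophage markers (such as Mrc1, Csf1r and Cd163) over the floor in all 20. Their summed level was 13749 to 15986 CPM in tdT+ CTL libraries and 5549 to 12029 in tdT- CTL libraries, against 6856 to 8966 in tdT+ LPS and 5399.7 to 6596 in tdT- LPS libraries, so that the LPS and CTL ranges were apart in tdT+ and overlapped in tdT- dCAMs. A list of 7 neutrophil markers summed to 46.8 to 195 CPM in the CTL libraries and to 434 to 1087 in the LPS libraries, but its members did not move alike. The median of S100a8 went from 2.22 to 272 CPM in tdT- and from 0.425 to 408 CPM in tdT+ dCAMs, and Mmp8 was at or under the floor in all CTL libraries and at 56.9 to 142 CPM in all LPS libraries. Csf3r medians went from 10.9 to 182 and from 104 to 255 CPM. S100a9 had medians of 0.982 and 0.984 CPM in tdT- CTL and LPS and of 0.649 and 0.170 CPM in tdT+ CTL and LPS libraries. Retnlg reached 23.2 to 642 CPM in tdT- LPS libraries and at most 1.02 CPM in tdT+ LPS libraries, and it was at up to 171 CPM in tdT- CTL libraries. The defining neutrophil genes Ly6g and Cxcr2 did not exceed 1.54 and 7.65 CPM in any library and were over the floor in 1 and 2 of the 5 tdT- LPS libraries and in none of the other groups. The 5 dendritic cell markers, mostly Cd209a, summed to 404 to 3469.7 CPM in tdT- CTL libraries and to at most 78.0 CPM in the other 15 libraries. The 5 monocyte markers (Ccr2, Ly6c2 and others) summed to 548 to 1095 CPM in tdT- CTL, 160.2 to 467 in tdT+ CTL, 278 to 727 in tdT- LPS and 136 to 292 in tdT+ LPS libraries. The 4 fibroblast markers reached 3612 CPM in the tdT- CTL library of mouse 179 and 640.5 in that of mouse 175, against at most 291 CPM elsewhere. Of the remaining lists, B cell markers summed to at most 114 CPM, T or NK cell markers to 15.3, mast cell markers to 119.6 and endothelial markers to 61.4 in any library. The part of these lists in the results that follow was not tested beyond the values given beside them. In such bulk samples, fewer cells making a transcript and less transcript per cell cannot be told apart.

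**Figure D1:**
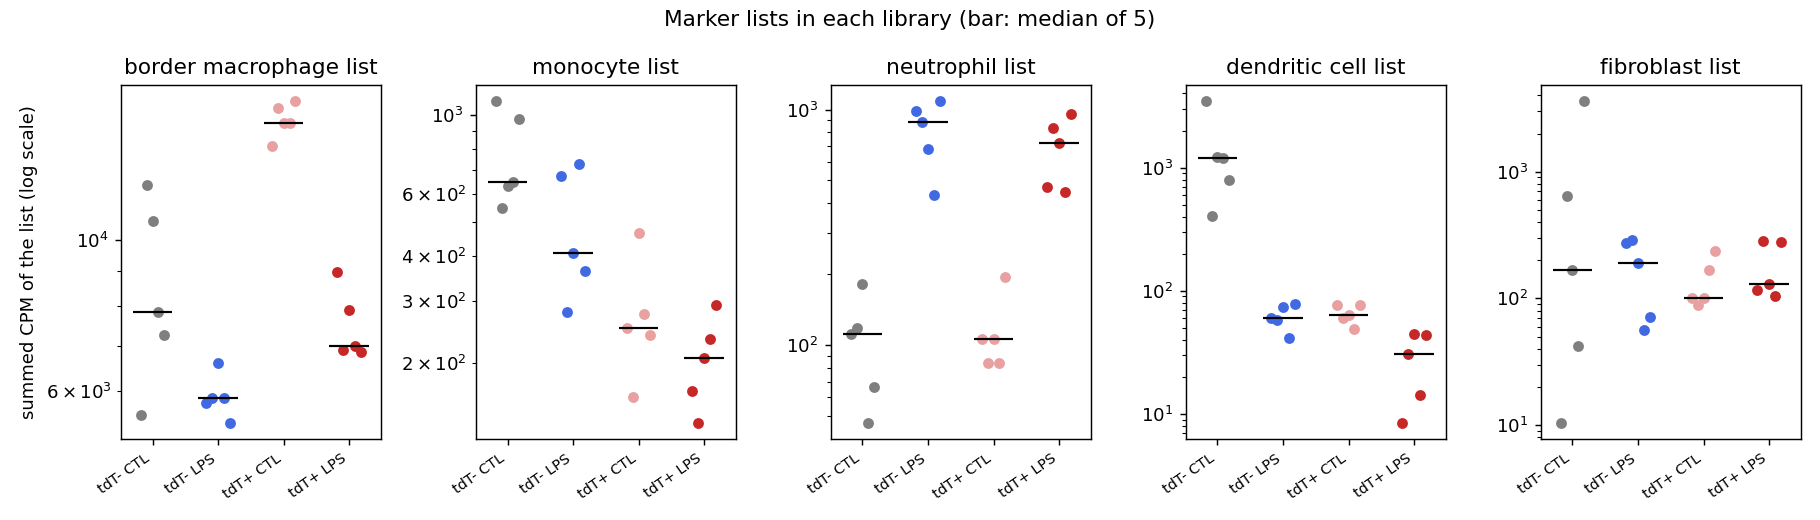
Summed CPM (log axis) of the markers of 5 cell types in each of the 20 libraries, grouped by population and treatment, with a bar at the median of 5 libraries. Neutrophil sums are higher in both LPS groups (434 to 1087 CPM) than in the CTL groups (46.8 to 195 CPM), and dendritic cell sums are highest in tdT- CTL libraries (404 to 3469.7 CPM).

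The effect of LPS against PBS was asked first, in each population on its own. In tdT- dCAMs, 3 of the 10 cytokine genes were called, meaning a Benjamini-Hochberg adjusted p under 0.05 over all genes tested with edgeR's quasi-likelihood test and an absolute log2 fold change over 1. Of these, Il1a and Il1rn rose and Tnf fell. The same call was made for 11.5% of all genes tested in tdT- dCAMs, with 7.20% of genes called higher and 4.27% called lower. In tdT+ dCAMs, 3 of the 10 genes were called, all higher, and these were Il1a, Il1b and Il1rn. There 5.89% of all genes tested were called, 3.37% higher and 2.52% lower. LPS and CTL libraries did not overlap for 4 of the 10 genes in tdT- dCAMs (12.6% of all genes tested) and for 6 of 10 in tdT+ dCAMs (17.8%). Because the 10 genes were chosen with earlier results of these data known, their counts beside these shares are not a test. The median log2 fold change of the 10 genes was 0.23 in tdT- and 1.24 in tdT+ dCAMs, against 0.02 and 0.01 over all genes tested. These medians include Il12b and Ifnb1, which were detected too rarely for a comparison. The tdT- median lies between the 0.46 of Il1b and a value of 0 for Ifnb1, which had no counts in tdT- libraries. It is therefore not a measure of the tdT- response.

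**Figure D2:**
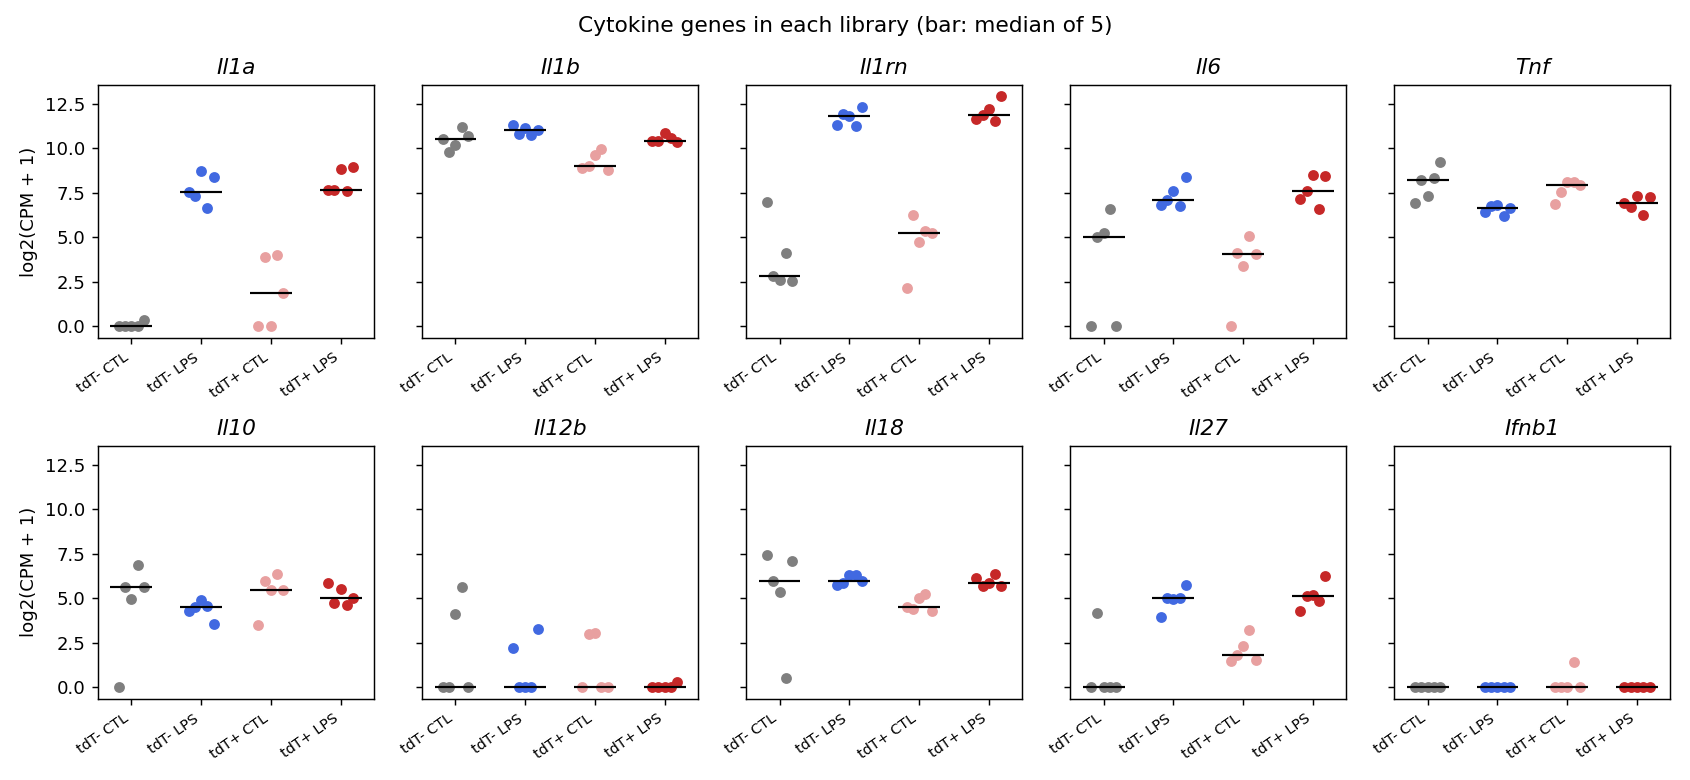
Level of the 10 cytokine genes, as log2(CPM + 1), in each of the 20 libraries, grouped by population and treatment, with a bar at the median of 5 libraries. Il1a is at 15.1 CPM or less in CTL and 97.8 CPM or more in LPS libraries, and Il1rn at 126 CPM or less and 2419 CPM or more, while Il1b is high in all groups and Ifnb1 is at 0 outside 1 library.

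Promoter windows of 300 bases (250 before to 50 after the start of transcription, RefSeq, build GRCm38.p6) are shown for the 3 IL-1 genes, Il6 and Tnf. These are the genes called under LPS and Il6, whose LPS and CTL libraries did not overlap in either population. The windows are read 5′ to 3′ on the strand of the gene, and capitals mark matches on either strand to one of 6 motifs. These were the TATA box (TATAAA), the AP-1 motif (TGANTCA), the CRE motif (TGACGTCA), the C/EBP half-site pair (TTGCNNAA), the core of the interferon-stimulated response element and the NF-kB consensus. Il1rn has 3 windows, of which the most upstream is shown. The other 2 lie downstream, at chr2:24345041-24345340 and chr2:24345121-24345420. The first of these held none of the 6 motifs. The second held a TATA box match on the opposite strand, 15 to 20 bases after the start. Which start these cells used was not tested, so the window shown need not be the one behind the Il1rn values.
Il1a promoter (chr2:129309923-129310222, minus strand): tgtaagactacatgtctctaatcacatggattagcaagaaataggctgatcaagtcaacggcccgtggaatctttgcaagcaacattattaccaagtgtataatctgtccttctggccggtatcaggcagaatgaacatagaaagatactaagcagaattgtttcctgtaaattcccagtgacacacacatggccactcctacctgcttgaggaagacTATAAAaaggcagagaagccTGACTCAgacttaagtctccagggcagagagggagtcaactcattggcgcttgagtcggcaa
Il1b promoter (chr2:129371090-129371389, minus strand): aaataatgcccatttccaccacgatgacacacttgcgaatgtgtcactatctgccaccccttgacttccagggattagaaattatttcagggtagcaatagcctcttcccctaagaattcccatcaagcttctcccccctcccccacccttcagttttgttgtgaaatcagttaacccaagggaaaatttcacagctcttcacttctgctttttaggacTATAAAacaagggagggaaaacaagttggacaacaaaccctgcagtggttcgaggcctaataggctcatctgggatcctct
Il1rn promoter (chr2:24336610-24336909, plus strand): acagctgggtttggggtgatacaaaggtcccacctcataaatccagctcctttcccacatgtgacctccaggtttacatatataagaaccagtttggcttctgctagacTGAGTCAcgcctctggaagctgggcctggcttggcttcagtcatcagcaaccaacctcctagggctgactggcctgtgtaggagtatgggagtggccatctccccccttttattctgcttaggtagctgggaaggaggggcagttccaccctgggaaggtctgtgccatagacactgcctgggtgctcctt
Il6 promoter (chr5:30012864-30013163, plus strand): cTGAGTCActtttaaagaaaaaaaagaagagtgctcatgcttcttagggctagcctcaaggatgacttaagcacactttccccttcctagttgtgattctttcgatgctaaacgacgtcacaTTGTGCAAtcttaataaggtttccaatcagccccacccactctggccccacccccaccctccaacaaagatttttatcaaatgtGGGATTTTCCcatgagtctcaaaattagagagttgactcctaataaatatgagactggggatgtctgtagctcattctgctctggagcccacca
Tnf promoter (chr17:35201958-35202257, minus strand): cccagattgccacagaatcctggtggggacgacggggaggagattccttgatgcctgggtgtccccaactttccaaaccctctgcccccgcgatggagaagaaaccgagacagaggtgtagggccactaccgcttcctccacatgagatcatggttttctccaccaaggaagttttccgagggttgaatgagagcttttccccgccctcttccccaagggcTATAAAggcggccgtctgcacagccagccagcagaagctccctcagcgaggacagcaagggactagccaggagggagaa
The Il1a window held a TATA box 27 to 32 bases before the start and an AP-1 motif 6 to 12 bases before it, and the windows of Il1b and Tnf held a TATA box at 26 to 31 and 24 to 29 bases before the start and no other of these motifs. The upstream Il1rn window held an AP-1 motif at 135 to 141 bases before the start. The Il6 window held an AP-1 motif at its far end, a C/EBP motif at 121 to 128 and an NF-kB consensus at 35 to 44 bases before the start. Of all 32851 windows in the table, 13.6% held the TATA box, 7.81% the AP-1 motif, 10.8% the C/EBP motif, 8.46% the NF-kB consensus, 3.44% the interferon element core and 1.79% the CRE. A match is a string of letters only. The TATA box stood in the windows of Il1a and Il1b and also in that of Tnf, and it was not found in the windows of Il1rn and Il6 shown. Il10 and Il27 are named here without a window, and the windows of Il12b, Il18 and Ifnb1 are not shown.

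Il1a, whose product is an alarmin bound to membranes or released from damaged cells, rose in both populations. The gene lies on chromosome 2, 129299610 to 129309972 on the minus strand (GRCm38). In tdT- dCAMs it was at 0 in the CTL libraries of mice 174, 175, 177 and 178 and at 0.262 CPM (2 counts) in that of mouse 179. Under LPS it was at 186, 159, 429.5, 97.8 and 339 CPM in mice 54, 56, 59, 60 and 61. Every tdT- CTL library was thus at or under the floor, and the mean under LPS was 644-fold that floor (adjusted p = 1.49e-05, edgeR). The floor covers counting error only, and the tdT- CTL libraries were the least complete. In the tdT+ CTL libraries Il1a was at 0 in mice 174 and 177, at 14.1 and 15.1 CPM in mice 175 and 178 and at 2.68 CPM in mouse 179. In tdT+ LPS libraries it was at 203, 204, 465, 192 and 501 CPM, with no overlap with the CTL libraries. This was a 48.8-fold rise, or 5.61 ± 1.07 on the log2 scale (SE, 5 libraries a group, edgeR, adjusted p = 0.00141). With 2 of the CTL libraries at 0, the size differed between fits, and it was 7.99 in limma-voom with and without the mouse as a replicate block and 7.29 in limma-trend with it, all called.

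Il1b, on chromosome 2 at 129364570 to 129371139 (minus strand), was abundant before LPS and changed far less. In tdT- CTL libraries it was at 1496, 902, 1160.1, 2363 and 1664 CPM in mice 174, 175, 177, 178 and 179, and in tdT- LPS libraries at 2491, 1763, 2284, 1745 and 2118 CPM. These ranges overlapped, and the log2 fold change of 0.46 ± 0.24 was not called (edgeR, adjusted p = 0.200, 95% confidence interval -0.04 to 0.95). In tdT+ dCAMs the CTL libraries were at 470.1, 515, 774, 990.0 and 434 CPM and the LPS libraries at 1374, 1354, 1849, 1508 and 1305 CPM. All tdT+ LPS libraries were above all tdT+ CTL libraries. The rise was 2.32-fold, a log2 value of 1.21 ± 0.24 (edgeR, adjusted p = 0.00211). With limma-voom the same difference was 1.30 and was not called (adjusted p = 0.0934 without and 0.0946 with the mouse as a replicate block), and with the mouse as a block in limma-trend it was called at 1.28 (adjusted p = 0.000703).

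Il1rn, on chromosome 2 at 24336853 to 24351494 (plus strand), rose the most in level. In tdT- CTL libraries it was at 126, 6.15, 5.15, 16.3 and 4.97 CPM in mice 174, 175, 177, 178 and 179, so that mouse 174 stood well above the others. In tdT- LPS libraries it was at 2585, 3856, 3599, 2419 and 5182 CPM. The tdT+ CTL libraries were at 3.41, 75.9, 25.3, 39.8 and 37.3 CPM, where mouse 174 was the lowest, and the tdT+ LPS libraries at 3159, 3816, 4647, 2945 and 7711 CPM. On the log2 scale the rise was 6.80 ± 0.96 in tdT- dCAMs (SE, edgeR, adjusted p = 5.16e-05) and 6.94 ± 0.96 in tdT+ dCAMs (adjusted p = 4.65e-05), or 112-fold and 122-fold. The limma-voom fits did not call these changes, with SEs of 115 to 155 on the log2 scale. Their precision weights for Il1rn ran from 0.248 to 4.54e+09 between libraries, and limma-trend with the mouse as a replicate block gave 8.04 (adjusted p = 2.68e-07) and 7.37 (adjusted p = 9.79e-07). Without mouse 174 the edgeR value was 8.74 in tdT- and 6.62 in tdT+ dCAMs.

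The balance of the antagonist and the agonists was compared per length, as CPM per kb of exon. Il1rn made up 0.103% to 2.82% of the sum of Il1a, Il1b and Il1rn in tdT- CTL libraries and 0.249% to 4.71% in tdT+ CTL libraries. In LPS mice it made up 25.0%, 40.9%, 31.5%, 31.2% and 42.2% in the tdT- libraries of mice 54, 56, 59, 60 and 61, and 40.9%, 45.9%, 41.1%, 37.5% and 59.8% in their tdT+ libraries. The group means were 0.709% ± 1.18 and 2.06% ± 1.76 in tdT- and tdT+ CTL libraries and 34.2% ± 7.25 and 45.0% ± 8.77 in tdT- and tdT+ LPS libraries (SD, n = 5 each). The share was higher in the tdT+ library of every LPS mouse. With the longest transcript as the length, the LPS means were 44.9% and 56.7%. These shares are given without a test.

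**Figure D3:**
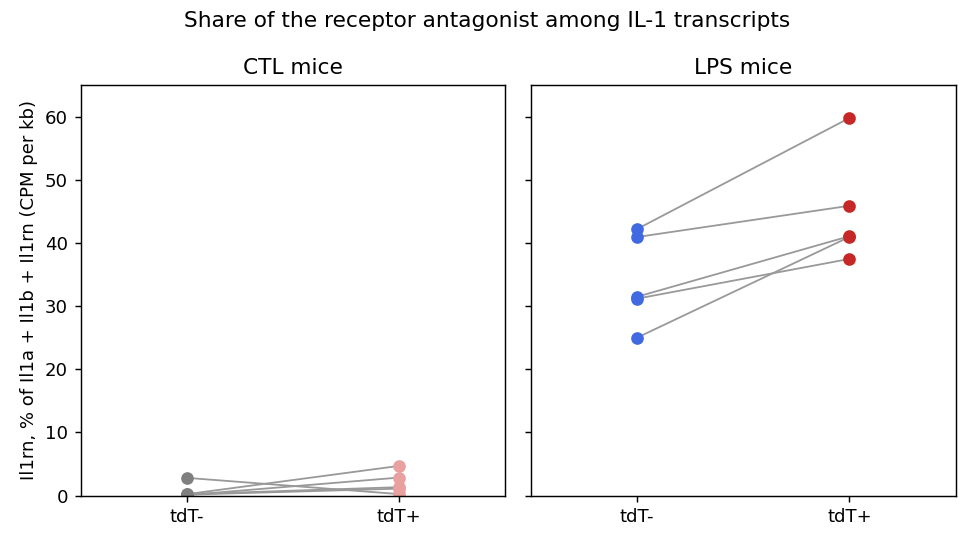
Share of Il1rn (percent) in the summed CPM per kb of Il1a, Il1b and Il1rn, in CTL mice (left) and LPS mice (right), with a line joining the tdT- and tdT+ library of each mouse. The share stays at or under 4.71% in the 10 CTL libraries and lies between 25.0% and 59.8% in the 10 LPS libraries.

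Tnf encodes a cytokine that macrophages release within hours of TLR4 signaling, and its transcript fell in tdT- dCAMs at 12 h after LPS. The gene lies on chromosome 17, 35199381 to 35202007 (minus strand). In tdT- CTL libraries it was at 121, 298, 161, 319.7 and 593 CPM and in tdT- LPS libraries at 86.6, 107, 112, 71.9 and 99.8 CPM, so that every LPS library was below every CTL library. Tnf was 3.13-fold lower, a log2 value of -1.64 ± 0.36 (edgeR, adjusted p = 0.00391). Without CTL mouse 179, which had the highest level and the highest fibroblast sum, it was -1.24 (adjusted p = 0.0141). In tdT+ dCAMs the CTL libraries were at 118, 183, 279.8, 274 and 244 CPM and the LPS libraries at 122, 104, 159, 75.5 and 156 CPM. These overlapped, and the log2 fold change of -0.84 ± 0.35 was not called (edgeR, adjusted p = 0.192). Neutrophil marker sums were higher and macrophage and dendritic cell marker sums mostly lower in the same LPS libraries, and their part in the Tnf values was not tested. Thinning every library to the smallest total gave -1.64 in tdT- dCAMs (adjusted p = 0.00324).

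Il6, on chromosome 5 at 30013114 to 30019981 (plus strand), encodes a cytokine of the acute phase response. It was at 0 in the tdT- CTL libraries of mice 174 and 179 and at 31.7, 37.2 and 94.3 CPM in those of mice 175, 177 and 178. In tdT+ CTL libraries it was at 0, 16.3, 9.57, 32.8 and 16.0 CPM. Under LPS it was at 110.2, 137, 193, 108 and 337 CPM in tdT- and at 144, 194, 365, 94.7 and 343 CPM in tdT+ libraries. Every LPS library was above every CTL library of its population, but neither change was called, with log2 fold changes of 2.44 ± 1.18 (adjusted p = 0.170) and 3.93 ± 1.26 (adjusted p = 0.0720, edgeR). The calls depended on the fit. In tdT- dCAMs limma-voom and limma-trend called it, at 5.46 and 4.97 (adjusted p = 0.0223 to 0.0269, limma-voom with and without and limma-trend with the replicate block), and in tdT+ dCAMs DESeq2 called it at 3.90 (adjusted p = 0.0122). An edgeR fit on the 10 tdT+ libraries alone also called it (adjusted p = 0.00311), as did the joint fit without CTL mouse 174 (adjusted p = 0.0240).

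Il27, whose product pairs with that of Ebi3 to form IL-27, lies on chromosome 7 at 126589010 to 126594941 (minus strand). It was at 0 in 4 of 5 tdT- CTL libraries and at 17.2 CPM in that of mouse 175. In tdT+ CTL libraries it was at 1.78, 2.44, 4.04, 8.38 and 1.92 CPM. Under LPS it was at 14.3, 31.8, 29.7, 30.7 and 51.5 CPM in tdT- and at 18.6, 33.3, 34.9, 27.4 and 75.5 CPM in tdT+ libraries. In the joint fit the log2 values of 3.19 ± 1.38 in tdT- (adjusted p = 0.129) and 3.35 ± 1.39 in tdT+ dCAMs (adjusted p = 0.181, edgeR) were not called. Both were called without mouse 175, at 3.23 in tdT+ dCAMs (adjusted p = 0.0109) and against tdT- CTL libraries that were then all at 0 (adjusted p = 7.72e-06). The change in tdT+ dCAMs was also called in the fit on its 10 libraries alone (3.34, adjusted p = 0.000806) and in limma-trend with the mouse as a replicate block (3.37, adjusted p = 0.0428). In tdT- dCAMs, where LPS libraries and that of CTL mouse 175 overlapped, the blocked limma-trend value was 6.05 (adjusted p = 0.000237) and limma-voom gave 7.28 with and without the block.

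Il18, on chromosome 9 at 50554827 to 50581840 (plus strand), was measured in every library. It was at 172, 62.6, 40.1, 0.452 (4 counts) and 134 CPM in the tdT- CTL libraries and at 51.5, 55.6, 77.5, 76.7 and 62.1 CPM in the tdT- LPS libraries. The tdT- CTL libraries thus spread on both sides of the LPS libraries, and the log2 fold change was -0.34 ± 0.69 (edgeR, adjusted p = 0.790). Its sign turned in limma-voom (1.19) and limma-trend (0.97), which did not call it either. In tdT+ dCAMs the CTL libraries were at 21.3, 20.2, 30.9, 35.9 and 18.8 CPM and the LPS libraries at 68.3, 50.1, 55.6, 79.8 and 49.99 CPM, without overlap. The log2 fold change of 1.26 ± 0.70 was not called in the joint fit (edgeR, adjusted p = 0.347). It was called at 1.25 in the fit on these 10 libraries alone (adjusted p = 0.00301) and in the joint fit without mouse 178, whose tdT- library had the 4 counts (adjusted p = 0.0393).

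Il10, on chromosome 1 at 131019845 to 131024974 (plus strand), was not called in either population. It was at 0, 48.6, 30.1, 117 and 48.3 CPM in tdT- CTL and at 18.7, 21.6, 28.6, 22.9 and 10.7 CPM in tdT- LPS libraries. Apart from the 0 of mouse 174, each tdT- CTL library was above each tdT- LPS library. By edgeR the log2 value was -1.25 ± 0.85 (adjusted p = 0.338), and -1.59 without mouse 174 (adjusted p = 0.0202). In limma-voom and limma-trend it was 0.32 and 0.20, not called. In tdT+ dCAMs the CTL libraries were at 10.4, 61.0, 43.7, 80.7 and 43.2 CPM and the LPS libraries at 57.5, 25.6, 44.1, 23.7 and 31.6 CPM, which overlapped (-0.39 ± 0.84, adjusted p = 0.921).

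Il12b and Ifnb1 were detected too rarely for a comparison. Il12b, on chromosome 11 at 44400063 to 44414033 (plus strand), was over the floor in 7 of 20 libraries, at 16.2 and 48.5 CPM in the tdT- CTL libraries of mice 177 and 178, at 6.79 and 7.15 CPM in the tdT+ CTL libraries of mice 175 and 177, at 3.65 and 8.54 CPM in the tdT- LPS libraries of mice 54 and 61 and at 0.227 CPM (4 counts) in the tdT+ LPS library of mouse 61. Neither LPS contrast was called (adjusted p = 0.494 in tdT- and 0.238 in tdT+ dCAMs, edgeR). Ifnb1, on chromosome 4 at 88522025 to 88522774 (minus strand), had 16 counts (1.68 CPM) in the tdT+ CTL library of mouse 178 and 0 in the other 19 libraries, where a count of 0 allows a level of up to 0.487 CPM. A transcript at or under these levels at 12 h was not detectable at this depth.

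**Figure D4:**
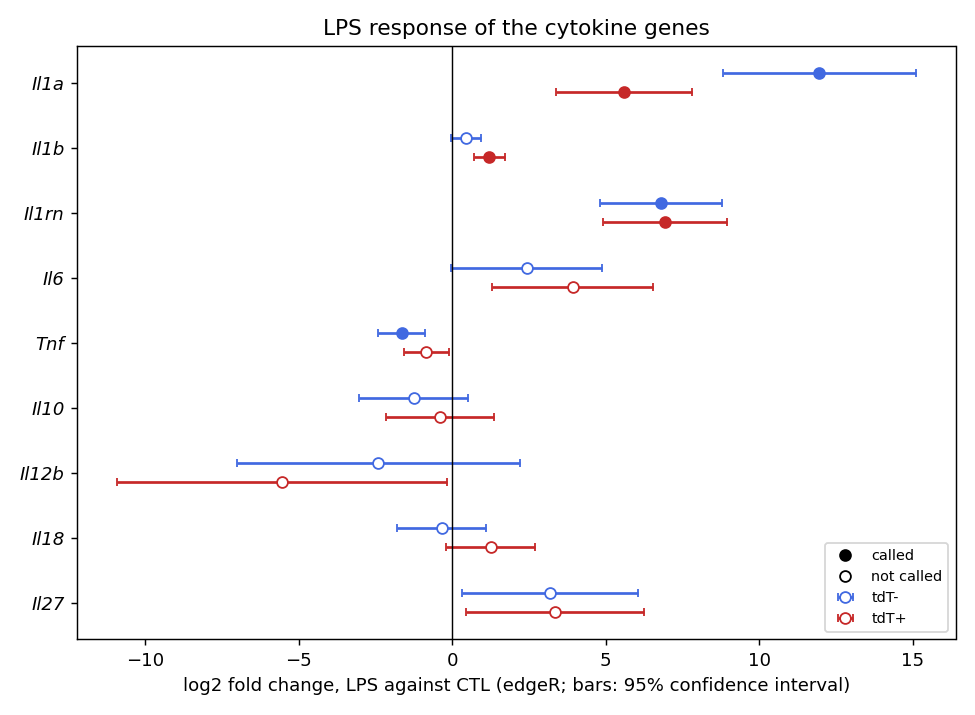
Log2 fold change of LPS against CTL in tdT- (blue) and tdT+ (red) dCAMs for the 9 genes other than Ifnb1, from the joint edgeR fit, with 95% confidence intervals and filled points for called changes. Il1a and Il1rn lie at 5.61 or more in both populations and Tnf is the 1 called gene below 0, while the tdT- value of Il1a is fitted against libraries at or under 3 counts and is not a size of change.

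The populations were then compared within treatment, where the tdT+ and tdT- libraries of a mouse came from the same dura. In CTL mice 2 of the 10 genes were called, against 4.28% of all genes tested. Il1b was lower in the tdT+ library of each of 5 mice, at 470.1 against 1496, 515 against 902, 774 against 1160.1, 990.0 against 2363 and 434 against 1664 CPM. This difference was 2.38-fold, or -1.25 ± 0.24 on the log2 scale (edgeR, adjusted p = 0.00339), although the ranges of the groups overlapped. Fitted on the 10 CTL libraries alone, the same difference of -1.25 was not called, with an adjusted p of 0.190 without and 0.276 with the mouse as a replicate block. In limma-voom it was not called either (adjusted p = 0.103 with the block), and in limma-trend with the block it was (adjusted p = 0.00141). The same tdT- CTL libraries had higher dendritic cell sums (404 to 3469.7 CPM, where no tdT+ library exceeded 78.0 CPM) and higher monocyte sums in every mouse, and the part of these cells in the Il1b values was not tested. Il1a was called higher in tdT+ dCAMs, where 3 of 5 libraries were over the floor against 0 of 5 (adjusted p = 0.00547, edgeR). The tdT+ mean of 6.38 CPM was 16.9-fold the tdT- floor, which covers counting error only and is no bound on the difference. Il1a was also at 0 in 2 tdT+ CTL libraries, the groups overlapped, and the tdT- CTL libraries were the least complete. The call of Il1a was lost on the 10 CTL libraries alone (adjusted p = 0.309 without and 0.642 with the mouse as a replicate block) and in the limma fits, which were limma-voom without and with the block (adjusted p = 0.212 and 0.192) and limma-trend with the block (adjusted p = 0.0581).

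For some of the other genes the value between populations moved when a single CTL mouse was left out. Il1rn was higher in the tdT+ library of 4 of 5 CTL mice, with a joint value of 0.20 ± 0.75 (edgeR, adjusted p = 0.954) and 2.46 without mouse 174 (adjusted p = 0.00218). Il18 was lower in the tdT+ library of 4 of 5 CTL mice, at -1.69 ± 0.71 (adjusted p = 0.163) and at -2.09 without mouse 178 (adjusted p = 0.00575). Il27 had a joint value of 0.10 ± 1.28, and without mouse 175 the tdT- CTL libraries were all at 0 and the gene was called higher in tdT+ dCAMs (adjusted p = 0.000147). With limma-voom Il27 was called at 4.08 with the block (adjusted p = 0.0431) and 4.09 without it (adjusted p = 0.0497). Tnf was not called between populations in CTL mice (-0.44 ± 0.35, adjusted p = 0.505), and the test called neither Il6 (-1.12 ± 1.14, adjusted p = 0.617) nor Il10 (-0.03 ± 0.84), and the signs of Il6 and Il10 turned in limma-voom.

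In LPS mice none of the 10 genes was called between populations, where 0.0301% of all genes tested were called with edgeR. At an unadjusted p under 0.05 stood 1 of the 10 genes, Il12b, which was over the floor in 3 of these 10 libraries, and 899 of all genes tested (5.41%). DESeq2 and limma called none of the 10. Il1b was lower in the tdT+ library of each of 5 LPS mice, at 1374 against 2491, 1354 against 1763, 1849 against 2284, 1508 against 1745 and 1305 against 2118 CPM (-0.49 ± 0.24 on the log2 scale, edgeR, adjusted p = 0.919). With the mouse as a replicate block the same difference was -0.49 in edgeR on these 10 libraries (adjusted p = 0.0501) and -0.57 in limma-voom (adjusted p = 0.0498), both under the fold required for a call, and -0.49 in limma-trend (adjusted p = 1). Il1a and Il10 were higher in the tdT+ library of each of 5 LPS mice, by 0.37 ± 0.87 and 0.83 ± 0.85 on the log2 scale. Both values are smaller than their errors, but these errors also take in the spread of the CTL libraries. Without CTL mouse 174, which is not part of this comparison, the SE went from 0.87 to 0.73 for Il1a and from 0.74 to 0.35 for Il1rn. The errors therefore do not measure how alike the 5 LPS mice were. The edgeR fit of the 10 LPS libraries that paired them by mouse called neither Il1a nor Il10. With all mice, the joint edgeR fit gave 95% confidence intervals for the difference in LPS mice. They were -0.99 to 0.00 for Il1b, -1.45 to 2.18 for Il1a, -1.21 to 1.88 for Il1rn and -0.37 to 1.10 for Tnf.

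**Figure D5:**
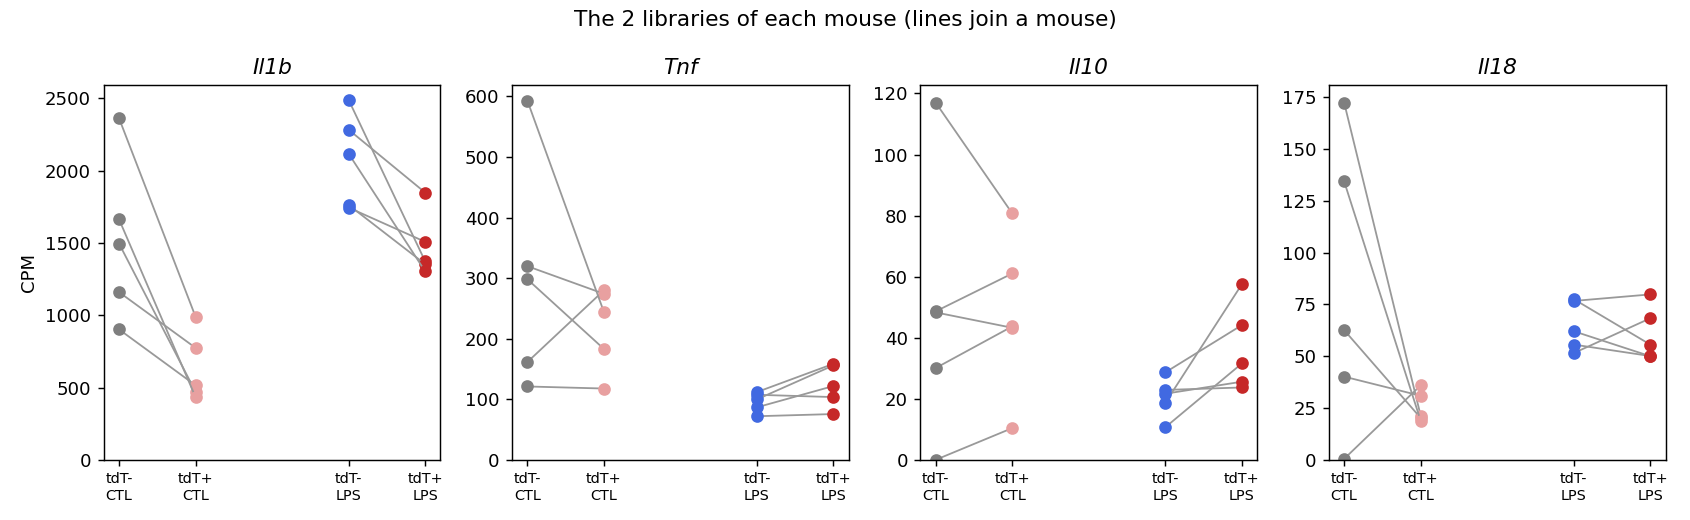
CPM of Il1b, Tnf, Il10 and Il18 in the tdT- and tdT+ library of each mouse, with a line joining the libraries of a mouse, for CTL (left pair) and LPS mice (right pair). The lines of Il1b fall from tdT- to tdT+ in all 10 mice, and the tdT- CTL libraries of Tnf (121 to 593 CPM) and Il18 (0.452 to 172 CPM) spread more widely than the tdT- LPS libraries.

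Whether the LPS response itself differed between tdT+ and tdT- dCAMs was tested as the difference of both effects in the joint fit. Of the 10 genes 0 were called, against 1.26% of all genes tested. At an unadjusted p under 0.05 stood Il1a and Il1b, and 2181 of all genes tested (13.1%). For Il1b the effect in tdT+ exceeded that in tdT- by 0.76 ± 0.34 on the log2 scale (adjusted p = 0.318, edgeR, 95% confidence interval 0.06 to 1.46). For Il1a the difference was -6.35 ± 1.65 (adjusted p = 0.0639), a value that rests on tdT- CTL libraries at or under the floor, and DESeq2 called it (adjusted p = 0.00422), as did the joint fit without CTL mouse 174 or 177 (adjusted p = 0.0363 and 0.0317). For Tnf it was 0.81 ± 0.50 (adjusted p = 0.570), with a 95% confidence interval of -0.23 to 1.85. A call in 1 population and not in the other, as for Il1b and Tnf, was therefore not shown to be a difference between the populations. For Il27 the difference was 0.16 ± 1.80 and turned to -8.27 without CTL mouse 175 (adjusted p = 0.000963), when the remaining tdT- CTL libraries were all at 0.

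Per kb of exon, the order of the genes differed between the treatments. In tdT- CTL libraries Il1b was highest with 796 ± 292 CPM per kb, followed by Tnf with 182 ± 113, Il18 with 79.5 ± 68.0 and Il10 with 37.2 ± 32.8 (SD, n = 5), and the last 3 overlapped. In tdT+ CTL libraries Il1b had 334 ± 125, Tnf 134 ± 42.0, Il10 36.5 ± 19.8 and Il18 24.6 ± 7.35 CPM per kb, of which Il10 and Il18 overlapped. In tdT- LPS libraries Il1b (1091 ± 171 CPM per kb) and Il1rn (637 ± 201) overlapped at the top, followed by Il1a (123 ± 69.5), Il6 (72.9 ± 39.4), Il18 (62.7 ± 11.6) and Tnf (58.3 ± 9.93), of which each overlapped the next. In tdT+ LPS libraries Il1rn (805 ± 350.0 CPM per kb) and Il1b (775 ± 116) overlapped at the top, and Il1a (159 ± 79.0), Il6 (93.9 ± 49.5) and Tnf (75.1 ± 21.5) followed, each overlapping the next. The tdT+ LPS mean of Il1rn includes 1393 CPM per kb in mouse 61. These orders are of group means and do not compare the genes within each library. The values also depend on the length used. It was 5.535 kb of exons for Il1rn and 1.907 kb for Il1b, where the longest transcripts have 2.554 and 1.356 kb. The spread among mice was smaller under LPS for Il1b in both populations and for Tnf mainly in tdT- dCAMs. The coefficient of variation of Il1b was 36.8% and 37.4% in tdT- and tdT+ CTL libraries and 15.7% and 14.9% in the LPS libraries, and that of Tnf was 62.1% and 31.3% against 17.0% and 28.7%. No test was made of these spreads, and the CTL libraries were also shallower and, in tdT- dCAMs, less complete.

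Genes of the same pathways were taken from 5 lists of 72 genes, chosen with earlier results of these data known. The first list holds the partner subunits Il12a, Il23a and Ebi3. Ebi3, the partner of Il27, was at 26.4 to 81.0 CPM in CTL and 95.2 to 187 CPM in LPS libraries of tdT- dCAMs and at 35.4 to 56.8 and 108 to 163 CPM in tdT+ dCAMs. It rose in both (log2 fold change 1.39 ± 0.30, adjusted p = 0.00357, and 1.65 ± 0.30, adjusted p = 0.00106, edgeR). Il12a, the partner of Il12b in IL-12, was at 0 in all 10 CTL libraries and over the floor in 4 tdT- and 2 tdT+ LPS libraries, at 2.99 CPM at most, and Il23a, the partner of Il12b in IL-23, stayed at or under 5.05 CPM. Neither was called.

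Of 19 receptors and decoys, 6 rose and 1 fell in tdT- dCAMs and 4 rose and 2 fell in tdT+ dCAMs. Over all genes tested, 7.20% were called higher and 4.27% lower in tdT- dCAMs, and 3.37% and 2.52% in tdT+ dCAMs. Il1r1, the signaling receptor of IL-1, was at or under the floor in all 10 CTL libraries and at 50.9 to 159.8 CPM in tdT- and 57.9 to 100.4 CPM in tdT+ LPS libraries (adjusted p = 7.87e-07 and 7.11e-07). Il1r2, a decoy that binds IL-1 without signaling, was at 0 in all tdT+ CTL libraries and at 45.3 to 82.8 CPM in tdT+ LPS libraries (adjusted p = 0.000830), and it went from 0 to 40.0 CPM in tdT- CTL to 87.3 to 184 CPM in tdT- LPS libraries (adjusted p = 0.0481). Il6st, the shared signaling chain of the IL-6 family, rose by 1.94 ± 0.46 in tdT- and 2.75 ± 0.48 in tdT+ dCAMs on the log2 scale (adjusted p = 0.00710 and 0.000534). Il10ra, the ligand-binding chain of the IL-10 receptor, fell in tdT+ dCAMs from 538 to 658 CPM to 175 to 242 CPM (-1.51 ± 0.28, adjusted p = 0.00114), and in tdT- dCAMs its value of -0.95 ± 0.28 lay under the fold required (adjusted p = 0.0276). Also called lower, and named after their values were seen, were the receptor chains Il27ra in tdT- (adjusted p = 0.0372) and Il18r1 in tdT+ dCAMs (adjusted p = 0.0204). The median log2 fold change of the 19 genes was 0.84 in tdT- and 0.64 in tdT+ dCAMs.

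Of 9 genes for processing and release of cytokines, 2 rose and 0 fell in each population. Among all genes tested, 7.20% rose in tdT- and 3.37% in tdT+ dCAMs. Pycard, the adaptor of inflammasomes, rose in both (2.16 ± 0.41, adjusted p = 0.000999, in tdT- and 2.72 ± 0.41, adjusted p = 0.000127, in tdT+ dCAMs). Rhbdf2, which guides the protease that sheds TNF, rose in tdT- dCAMs (2.48 ± 0.63, adjusted p = 0.0109), and Gsdmd, the pore former through which IL-1β leaves cells, rose in tdT+ dCAMs (1.15 ± 0.30, adjusted p = 0.0183). Their values in the other population were 1.70 ± 0.61 (adjusted p = 0.114) and 0.999 ± 0.29 (adjusted p = 0.0292, just under the fold required).

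Of 19 genes of transcription and feedback control, 4 rose and 1 fell in each population. The shares over all genes tested were 7.20% and 4.27% in tdT- and 3.37% and 2.52% in tdT+ dCAMs. The median log2 fold change of the 19 genes was 0.30 in tdT- and 0.45 in tdT+ dCAMs. Socs3, a feedback inhibitor of IL-6 signaling, rose by 1.86 ± 0.27 and 2.66 ± 0.28 (adjusted p = 6.99e-05 and 1.06e-06), and Irf7, a driver of type I interferon genes, by 3.05 ± 0.44 and 3.12 ± 0.44 (adjusted p = 6.52e-05 and 5.78e-05). Tnfaip3, which encodes the NF-κB inhibitor A20, rose by 1.19 ± 0.33 and 1.63 ± 0.34 (adjusted p = 0.0207 and 0.00306), and Stat3, which transmits IL-6 and IL-10 signals, by 1.51 ± 0.33 and 1.34 ± 0.32 (adjusted p = 0.00327 and 0.0120). The gene that fell in both was Nfkbiz, a coactivator of NF-κB at Il6 (adjusted p = 0.00439 and 0.0416), which was named after its values were seen.

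Of 22 other cytokines, 20 were in the table and 15 were tested, of which 4 rose and 2 fell in tdT- and 3 rose and 2 fell in tdT+ dCAMs. Of all genes tested, 7.20% rose and 4.27% fell in tdT- dCAMs, and 3.37% and 2.52% in tdT+ dCAMs. Csf3, which encodes the neutrophil growth factor G-CSF, was at or under the floor in all 10 CTL libraries and at 122 to 315 CPM in tdT- and 156 to 532 CPM in tdT+ LPS libraries (adjusted p = 1.96e-09 and 9.27e-10). Osm, a cytokine of the IL-6 family, rose in tdT- dCAMs (1.95 ± 0.44, adjusted p = 0.00460), with 1.27 ± 0.43 in tdT+ dCAMs (adjusted p = 0.0923). Il16, a chemoattractant of CD4+ cells, fell from 68.1 to 114 CPM to 14.2 to 26.8 CPM in tdT- and from 54.7 to 167 CPM to 21.6 to 43.6 CPM in tdT+ dCAMs (-1.92 ± 0.36 and -1.91 ± 0.36, adjusted p = 0.000977 and 0.00130). Il15, a growth factor of NK cells and memory T cells, fell by 2.58 and 2.74 on the log2 scale (adjusted p = 0.00547 and 0.00515). Between populations of CTL mice 2 genes of these lists were called, against 4.28% of all genes tested. Il1r2 was lower in tdT+ dCAMs (adjusted p = 0.00952), whose libraries were all at 0 while 3 of 5 tdT- libraries were over the floor, and Il12rb1, a chain of the IL-12 receptor named after its values were seen, was higher (adjusted p = 0.0291). In LPS mice, and for the difference of the LPS effects, 0 genes of the lists were called, against 0.0301% and 1.26% of all genes tested.

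Genes whose levels ran most like those of the cytokines over the 20 libraries are given as a description, since all points share treatment and depth. Over the 7295 well expressed genes, Pearson's r of log2 CPM was highest for Il1rn with Tnfrsf9 (0.96), Msn (0.96) and Pirb (0.95), for Il1b with Dusp2 (0.91), Rnh1 (0.88) and Chd2 (0.86), and for Tnf with Dnaja1 (0.91), Zfp36 (0.86) and Ly96 (0.85). For Il6 it was highest with Clec4e (0.95), Cxcl2 (0.92) and Hif1a (0.92), and for Il10 with Tceal8 (0.94), Egr2 (0.94) and Oat (0.94). Il18 ran most like Taf9 (0.96), Ctps2 (0.95) and Aimp1 (0.95), and Il27 most like Palld (0.96), Slc10a6 (0.95) and Rnf34 (0.94). Il18 was at 0.452 CPM in the tdT- CTL library of mouse 178, and Il27 was at 0 in 4 tdT- CTL libraries. Il6 and Il10 also had tdT- CTL libraries at 0. The part of these less complete libraries in the r values was not tested.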

How the data were processed

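Bulk RNA-seq of 20 sorted dCAM libraries was analyzed from the raw count table. Per the labels and methods, the authors made libraries with a low-input SMART-Seq kit without molecular identifiers, aligned reads with STAR 2.7.11a and deposited unscaled counts per gene from featureCounts. The labels and methods name more than 1 genome build and RNA kit, and the build behind the table is not given in the sources used here, so coordinates and exon lengths are from GRCm38 (GENCODE M21) and only locate genes. Counting by strand is not given, so reads of Il1a, Il1b and Il27 and of the genes that overlap their exons on the opposite strand (Gm14023, Il1bos and Apobr) cannot be told apart. Floors cover counting error only, and the intervals of log2 values are approximate, come from the joint fit and include the spread between mice.

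Genes with a total under 10 counts were removed, and with TMM factors the 4 groups entered 1 joint fit with the quasi-likelihood test of edgeR 4.0.16 in R 4.3.3, with 5 contrasts. Calls needed an adjusted p (Benjamini-Hochberg) below 0.05 together with a log2 fold change beyond 1 in either direction. Alternatives were RLE factors, other filters, DESeq2 1.42.0, limma 3.58.1 (voom and, added after the data were seen, limma-trend), a term for the F or M that opens each title, fits of the compared groups alone, thinning to the smallest library total (also added) and leaving out each mouse. The scripts were tested on simulated counts. Levels between genes were compared per kb of exon.

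The members and lists were chosen with earlier results of these data known. Named are all 10 genes, the partner subunits, and up to 4 genes per other list that were called under LPS with the smallest p at a mean log2 CPM of at least 4, and for likeness the 3 genes with the highest r for each cytokine over 3 counts in at least 15 libraries. Each mouse gave a tdT+ and a tdT- library, so the animal pairs them. The correlation of their deviations from the group means ran from 0.000914 to 0.0333 in CTL and from 0.0471 to 0.119 in LPS mice. Mice are separate animals. Both letters, F and M, occur in each treatment (3 and 2 mice in CTL, 2 and 3 in LPS).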

Additional observations from a re-analysis of the deposited data

Results flagged for a closer look

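Of 37 groups of 5 libraries with values that vary, 6 held a library far from the other 4 by Dixon's criterion, computed on CPM. The criterion assumes normal values, and any single detection meets it where the other 4 libraries are at 0. The count is therefore a description and is not set against a rate expected by chance. Il1rn stood at 126 CPM in the tdT- CTL library of mouse 174, against 4.97 to 16.3 CPM in the other 4. The same library had the highest dendritic cell marker sum (3469.7 CPM) and the lowest macrophage sum (5549 CPM) of the tdT- CTL group, and the part of these in the Il1rn value was not tested. Il27 stood at 17.2 CPM in the tdT- CTL library of mouse 175, where the other 4 libraries were at 0, and at 75.5 CPM in the tdT+ LPS library of mouse 61, against 18.6 to 34.9 CPM. Il1a at 0.262 CPM (2 counts, under the floor) in the tdT- CTL library of mouse 179, Il12b at 0.227 CPM in the tdT+ LPS library of mouse 61 and Ifnb1 at 1.68 CPM in the tdT+ CTL library of mouse 178 were single detections in groups otherwise at 0.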

How the results depend on the processing

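With any 1 mouse left out, and with libraries thinned to the smallest library total, the calls of Il1a, Il1rn and Tnf in tdT- and of Il1a, Il1b and Il1rn in tdT+ dCAMs under LPS were kept. Over all 9 genes with values, 401 of 459 comparisons with other settings and 425 of 450 with 1 mouse left out kept direction and side of the threshold. Most of these results were not called in the main fit and stayed so. A call was lost in 15 comparisons with other settings. These were the LPS effects of Il1rn in both populations and of Il1b in tdT+ dCAMs, and Il1a and Il1b between populations of CTL mice. The depth of the CTL libraries, which were shallower and in tdT- less complete, limits every gene near the floor, and depth and treatment cannot be told apart.

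For LPS in tdT- dCAMs 1907 genes were called, against 4532 with limma-voom, 4523 with limma-voom and the mouse as a replicate block, 3681 with limma-trend and the block and 891 with the 2 groups alone. Of the 10 cytokines, limma-trend with the block called 5, adding Il6 and Il27. For LPS in tdT+ dCAMs 979 were called, against 1545 with DESeq2, 1570 and 1571 with limma-voom without and with the block and 2262 with the 2 groups alone. There limma-voom called 1 cytokine with and without the block, and the 2 groups alone gave 6. Between populations in CTL mice 712 were called, against 1644 with DESeq2, 2070 and 2245 with limma-voom without and with the block, 1753 with limma-trend and the block, 7 with the 2 groups alone and 3 with the mouse as a block in edgeR, and 478 to 1352 without 1 mouse. Of the cytokines, limma-voom without and with the block and limma-trend called 1 and both edgeR fits of the 2 groups called 0. In LPS mice 5 were called, against 60 with DESeq2, 20 and 22 with limma-voom, 18 with limma-trend, 3 with the title letter, 39 with the 2 groups alone, 85 with the mouse as a block in edgeR, 3 after thinning and 1 to 6 without 1 mouse. For the difference of the LPS effects 209 were called, against 744 with DESeq2 and 564 and 619 with limma-voom, and 63 to 640 without 1 mouse. DESeq2 called 1 cytokine there, and leaving out 1 mouse 0 to 1.

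Directions turned for genes that were not called. For LPS in tdT- dCAMs, limma-voom without and with the block and limma-trend gave 0.32, 0.32 and 0.20 for Il10 and 1.19, 1.19 and 0.97 for Il18. Between populations in CTL mice they gave 0.78, 0.78 and 0.42 for Il6 and 1.44, 1.44 and 1.21 for Il10. Il10 was also at 0.0343 with RLE factors, 0.0343 with DESeq2, 0.0039 with the title letter and 0.77 with the block in edgeR, and Il27 at -0.0500 with the title letter. For the difference of the LPS effects they gave -0.0287, -0.10 and -0.67 for Il1rn, -0.35, -0.36 and -0.0936 for Il6, -0.64, -0.63 and -0.40 for Il10 and -3.77, -3.77 and -2.68 for Il27. Without 1 mouse, Il18 under LPS in tdT- dCAMs ran from -0.62 to 0.0941, and in CTL mice Il1rn ran from -0.36 to 2.46, Il10 from -0.13 to 0.35 and Il27 from -0.79 to 8.57. Il18 in LPS mice ran from -0.19 to 0.0137, and the differences of Il1rn and Il27 from -2.12 to 0.72 and from -8.27 to 1.09. The Il1rn share in LPS libraries was 44.9% and 56.7% with the longest transcript. The causes were not tested.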
